A study of Mus musculus with 8 samples.

Results

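YY1 regions that were called in both libraries of Alkbh5 del-cIDR cells and in exactly 1 of the libraries of wild-type (WT) cells numbered 1759, of 20558 merged YY1 regions in all. A region is a stretch of the genome where peaks of the 4 YY1 libraries share at least 1 bp, on chromosomes 1 to 19 and X. The rule takes 8.56% of all merged regions and 31.0% of the 5677 regions called in both del-cIDR libraries. Another 1910 of those 5677 regions were in no WT list and 2008 were in both WT lists. The members were chosen by the peak calls themselves, so their YY1 values are given as a description without a test.

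YY1 is a zinc-finger transcription factor that binds at many promoters and enhancers and can bring them together by forming dimers. P300 is a histone acetyltransferase and coactivator, recruited by transcription factors, whose sites mark many active enhancers. ALKBH5 removes the N6-methyladenosine mark from RNA. A peak list records where the stacked reads passed a statistical line, and a region missing from a list may still be bound.

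CUT&RUN, in which an antibody tethers a nuclease that releases the DNA next to its target, was applied with antibodies to YY1 and to P300. All libraries came from the established mouse embryonic stem cell line E14TG2a, grown in serum with LIF and the inhibitors PD0325901 and CHIR99021. The groups were YY1 in Alkbh5 del-cIDR, YY1 in WT, P300 in Alkbh5 del-cIDR and P300 in WT, with 2 libraries each. The labels do not state whether the del-cIDR cells are a single clone or whether replicates were separate cultures, so spread between replicates may be technical. Peak lists hold no RNA levels, so neither the cell type nor the deletion could be checked in them. The YY1 lists held 9167 and 15517 peaks in del-cIDR replicates 1 and 2, and 3519 and 5833 in WT replicates 1 and 2. The P300 lists held 1322 and 1286 peaks in del-cIDR and 1452 and 2474 in WT cells. Gene annotation and sequence on the build of the files, GRCm39, were not used here, so regions are given by position.

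WT replicate 2 held most of the members. It held 1386 of them (78.8%, Wilson 95% interval 76.8 to 80.6), and WT replicate 1 held the other 373. Intervals of shares cover counting error only. The list of WT replicate 2 was the longer and made up 62.4% of the peaks of both WT lists. Of the 5677 del-cIDR regions, 59.8% (58.5 to 61.1) lay in the list of WT replicate 2 and 41.9% (40.7 to 43.2) in that of replicate 1. A del-cIDR region held by WT replicate 1 was also held by replicate 2 in 84.3% of cases, while the reverse share was 59.2%. Regions in exactly 3 of the 4 YY1 lists numbered 1957, and those other than the members lacked del-cIDR replicate 2 (55 regions) or replicate 1 (143 regions).

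The members came mostly from the middle of the del-cIDR ranks. Each region in both del-cIDR lists was given the mean of its percentiles of −log10 q within those lists, where −log10 q is the peak caller's significance after correction, and the 5677 regions were divided into deciles of rank. In the lowest decile 21.5% of regions were in exactly 1 WT list, and 75.2% were in none. The share was 41.7% (37.7 to 45.8) in the fifth decile and 41.6% (37.6 to 45.7) in the sixth. It was 21.7% (18.5 to 25.2) in the ninth and 6.69% (4.91 to 9.05) in the highest decile, where 92.8% of regions were in both WT lists. Members held by WT replicate 1 peaked earlier, at 11.1% of the fourth decile, than those held by replicate 2, at 32.7% of the seventh.

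**Figure D1:**
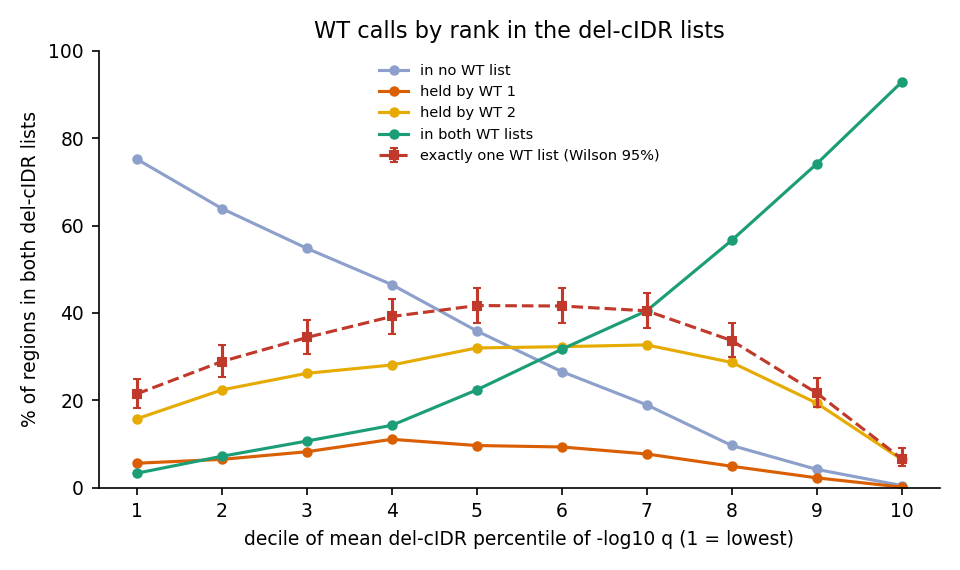
Share of the regions in both del-cIDR lists (y axis, percent) that were in no WT list, in WT replicate 1 alone, in WT replicate 2 alone or in both, by decile of their mean percentile in the del-cIDR lists (x axis). The dashed line is the share in exactly 1 WT list with Wilson 95% intervals; it lies at 21.5% in the lowest decile, 41.7% in the fifth and 6.69% in the highest.

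In both del-cIDR lists the members ranked between the regions in no WT list and those in both. In del-cIDR replicate 1 their median percentile was 63.5, against 46.7 for the regions in no WT list and 85.7 for those in both. In del-cIDR replicate 2 the medians were 76.3 for the members, 56.2 and 91.3. The median fold over background of the members was 5.62 and 6.25 in del-cIDR replicates 1 and 2. Within the members, those held by WT replicate 2 had median percentiles of 64.5 and 77.5 in the del-cIDR lists, and those held by replicate 1 had 59.9 and 71.5.

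**Figure D2:**
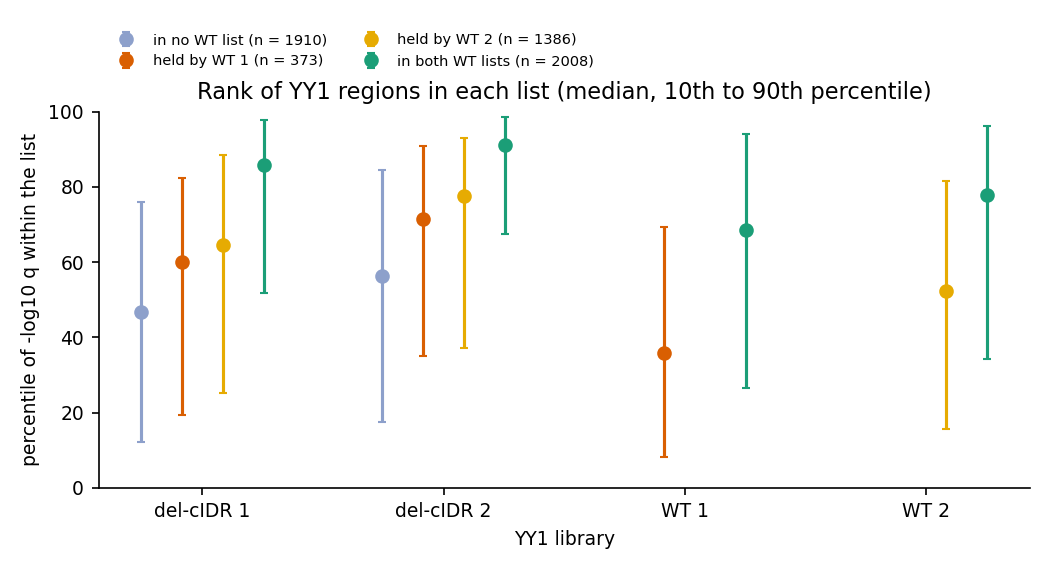
Percentile of −log10 q within each YY1 list (y axis) for the regions in no WT list, in WT replicate 1 alone, in WT replicate 2 alone and in both WT lists, by library (x axis). Points are medians and bars run from the 10th to the 90th percentile of regions; in del-cIDR replicate 1 the medians are 46.7, 59.9, 64.5 and 85.7.

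The working description of these regions as near the threshold in WT cells held for some members and not for others. In the WT list that held them, the members had a median −log10 q of 4.39, where the lowest value of the WT lists was 1.3. They had a median percentile of 48.5, and 849 of 1759 members (48.3%) lay above the middle of that list. Only 124 members (7.05%) lay below the 10th percentile, and 39 (2.22%) lay above the 90th. The 373 members held by WT replicate 1 sat lower in its list, with a median percentile of 35.7 and a median fold of 4.83. The 1386 held by WT replicate 2 had a median percentile of 52.3 in its list and a median fold of 5.27.

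Read numbers show the distance from the line more directly. The deposited fold and −log10 p of a peak together give the reads stacked at its summit, and the call line was taken as the fewest reads that reach the lowest −log10 p of the list at the peak's own background. Members had a median of 12 reads at the summit in the WT list that held them. Their medians in the del-cIDR lists were 12 and 11 reads. At the median background of a list the line lay at 9 reads in WT replicate 1 and 8 in WT replicate 2, and at 7 and 5 reads in del-cIDR replicates 1 and 2.

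Few members stood exactly on the line. Of the 1755 members with solved reads in their WT list, 58 (3.30%, 2.57 to 4.25) had no read to spare, 537 (30.6%, 28.5 to 32.8) were at most 2 reads above the line, and 1251 (71.3%) at most 5. In WT replicate 1, 46.1% (41.1 to 51.2) of its members were within 2 reads, against 13.8% (12.3 to 15.4) of the regions in both WT lists. In WT replicate 2 the shares were 26.4% (24.2 to 28.8) and 8.84% (7.67 to 10.2). The same members were within 2 reads of the line in 21% and 21.5% of cases in del-cIDR replicates 1 and 2, where regions in no WT list were so in 40.8% and 47.5%.

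**Figure D3:**
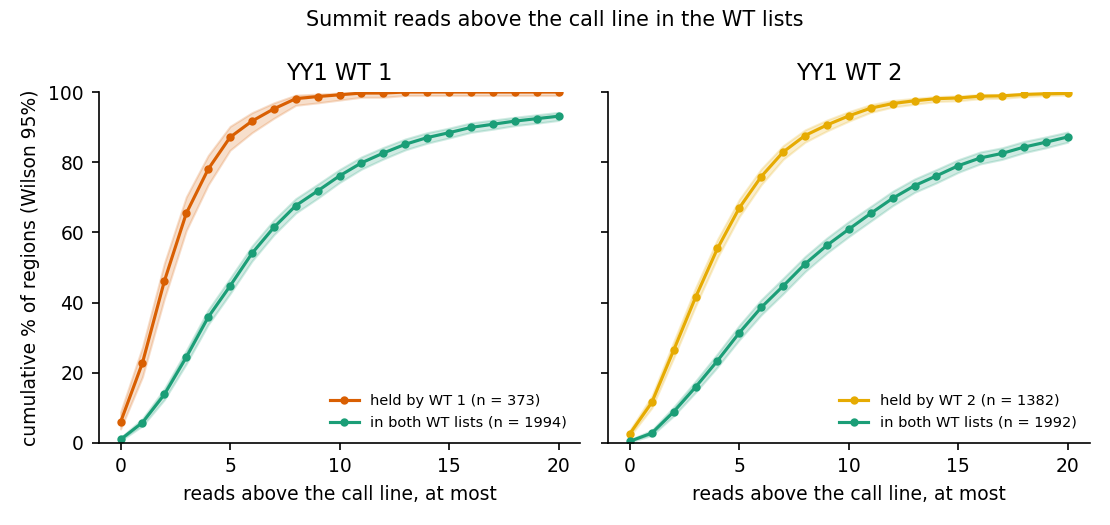
Cumulative share of regions (y axis, percent, with Wilson 95% bands) by the number of summit reads above the call line (x axis), in WT replicate 1 (left) and WT replicate 2 (right). At 2 reads the members held by that library alone reach 46.1% and 26.4%, and the regions in both WT lists reach 13.8% and 8.84%.

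The members nearest to the line show what the rule sorts. Among the members held by WT replicate 1, 4 tied at the lowest significance. One, on chromosome 11 from 70342783 to 70343240, had 7 reads in WT replicate 1 and 11 and 8 reads in del-cIDR replicates 1 and 2. Another, on chromosome 17 from 24673718 to 24674397, had 8 reads in WT replicate 1 and 15 and 10 in the del-cIDR libraries. Both stood exactly on the line in WT cells, with a −log10 q of 1.32. Among those held by WT replicate 2, the region on chromosome 10 from 4283059 to 4283483 had 9 WT reads and 10 and 11 del-cIDR reads, with a WT −log10 q of 1.32. Just outside the rule were regions that the second WT list also held by a small margin. On chromosome 6 from 141529795 to 141530503, for example, the −log10 q was 1.32 in WT replicate 1 and 8.69 in replicate 2, and on chromosome X from 150126859 to 150127157 it was 10.7 in replicate 1 and 1.34 in replicate 2. On the del-cIDR side, the lowest −log10 q among members was 1.37 in replicate 1 and 1.34 in replicate 2.

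The strongest members of WT replicate 2 were far above the line in all 3 lists that held them. The first was on chromosome 2 from 98495377 to 98495554, with −log10 q of 739 and 634 in del-cIDR replicates 1 and 2 and 1035 in WT replicate 2. Its folds were low all the same, at 3.83, 4.51 and 3.87. In the same order the folds were 9.31, 13.4 and 10.1 at chromosome 9 from 3025488 to 3025926, and 5.72, 6.60 and 5.22 at chromosome 14 from 3053388 to 3053567. Reads at the chromosome 14 region numbered 238 and 184 in del-cIDR and 399 in WT replicate 2, over backgrounds of 40.8, 27.0 and 75.6 reads. The chromosome 14 region thus combined very high significance with a high local background. At the chromosome 9 region a background was solved in del-cIDR replicate 1 alone, at 44.2 reads. At the chromosome 2 region none was solved. All 3 regions also carried a P300 peak in all 4 P300 lists, with a −log10 q of 519 to 2243. The list of WT replicate 1 had a YY1 peak 1.04, 0.863 and 0.196 kb away from them. Whether the signals at these regions mark binding of YY1 or P300 was not tested.

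Other strong members had far lower backgrounds than those solved for the regions just described, and no near peak in the missing list. On chromosome 1 from 158159715 to 158159952 the summit reads were 22 and 20 in del-cIDR replicates 1 and 2 and 29 in WT replicate 2, over backgrounds of 0.61, 0.42 and 0.82. The closest peak of WT replicate 1 lay 1773 kb away, and no P300 list held this region. On chromosome 7 from 82835179 to 82835684 the reads were 25, 18 and 26, with folds of 14.2, 12.3 and 13.6. On chromosome 7 from 122723083 to 122723472 they were 28, 25 and 28, with folds of 11.4, 13.5 and 9.83. The backgrounds there were 1.53, 0.93 and 1.95, above the median backgrounds of 1.18, 0.65 and 1.52 of those lists. At each of these 3 regions the reads of WT replicate 2 lay inside or above the range of the del-cIDR reads, but the depths are unknown. By fold the order varied. The fold of WT replicate 2 lay above both del-cIDR folds on chromosome 1 (16.5 against 14.3 and 14.8). It lay inside their range at the chromosome 7 region from 82835179 and below both at that from 122723083. WT replicate 1 made no call at any of these regions.

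Members held by WT replicate 1 reached less high. The best ranked, on chromosome 11 from 62831094 to 62831280, had 16 reads in each del-cIDR library and 18 in WT replicate 1, with folds of 9.02, 11.5 and 8.14. The next, on chromosome 19 from 4806613 to 4807109, had 16, 20 and 19 reads. On chromosome 11 from 99083172 to 99083778 they were 17, 18 and 16. The mean percentile of the leading 8 ran from 82.6 to 90.5, against 96.3 to 99.9 for the leading 8 held by WT replicate 2. The former were the best of 373 members and the latter the best of 1386, and a larger set can reach higher by its size alone. The latter also include the regions on chromosomes 2, 9 and 14 described above.

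Members were of middle width. Their median width was 485 bp (10th to 90th percentile 272 to 765), against 382 bp for regions in no WT list and 636 bp for those in both. A region spans all its merged peaks, so regions in more lists tend to be wider by the rule itself. Peaks of a single library kept the same order. In del-cIDR replicate 1 their median widths were 329 bp for members, 263.5 for regions in no WT list and 457 for those in both. In del-cIDR replicate 2 they were 351, 259.5 and 490 bp. The widest, on chromosome 9 from 71399357 to 71400814, spanned 1458 bp and was held by WT replicate 1. Summits of the del-cIDR libraries lay a median of 72 bp apart in the members, and 61.2% lay within 100 bp. The WT summit lay a median of 73 bp from that of del-cIDR replicate 2. Regions in both WT lists had closer summits, with medians of 58 and 59 bp.

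Narrow regions were most frequent among the few members at the top of the WT list. All 39 members above the 90th percentile were held by WT replicate 2, and 14 of them (35.9%) were under 300 bp wide, against 28 of the 525 regions in both WT lists (5.33%) above the same percentile of WT replicate 2. Between the 90th and 95th percentiles 7 of 28 members were under 300 bp, with a median width of 497.5 bp, close to that of all members. Above the 95th percentile it was 7 of 11 members, with a median of 238 bp, against 20 of 270 regions in both WT lists. Regions in both WT lists span the peaks of more lists than members do, which in itself makes narrow regions rarer among them. Among members below the 25th percentile of the WT list, 10.4% were under 300 bp. No peak in the list of WT replicate 1 was narrower than 178 bp. Of the 1386 members held by WT replicate 2, 166 (12%) had a WT replicate 2 peak narrower than that, among them 4 of the 11 above the 95th percentile. All 3 peaks were narrower than that in 7 members. The counts below 178 bp were not made for regions in both WT lists or for all peaks of WT replicate 2. They are thus not shown to be particular to the members. The part of peak width in the missing calls was not tested.

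The missing WT list had a peak close by at a small share of the members. A peak of the other WT list lay within 200 bp of 15 members (0.853%) and within 1 kb of 66 (3.75%). By the rule, no peak of that list overlaps a member. These shares were not counted for other regions, so they are not shown to be particular to the members. For the members held by WT replicate 2 the median gap to the list of replicate 1 was 122 kb, and for those held by replicate 1 the median gap to the longer list of replicate 2 was 72.3 kb. A YY1 region of any class lay within 1 kb of 21.1% of the members, of 21.3% of the regions in no WT list and of 15.2% of those in both.

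How many members kept all 3 peaks depended on where the lists were shortened. When only peaks with a −log10 q of at least 2 were kept, 1607 of the 1759 members were still in both del-cIDR lists and the WT list. With a −log10 q of at least 5 this number was 407. At that setting 302 lost only the WT peak, while 236 kept it and lost 1 del-cIDR peak and 90 kept it and lost both. Another 426 were left with 1 del-cIDR peak alone, and 298 with no peak. With the 3519 best-ranked peaks of every list, which makes the lists equally long, 461 members kept their place. Of the others, 109 lost the WT peak alone, 474 kept it and lost 1 del-cIDR peak, and 337 kept it and lost both. Another 174 were left with 1 del-cIDR peak alone, and 204 with no peak. That length is the whole list of WT replicate 1, so the 373 members it held could not lose their WT peak. The del-cIDR lists were cut most, from 9167 and 15517 peaks, against 5833 in WT replicate 2. These losses therefore cannot be compared between genotypes. The number of regions that met the rule was 551 with equal lists, and WT replicate 2 held 68.1% of them, against 78.8% with the whole lists. Of these 551, 461 had been members and 90 had been in both WT lists.

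**Figure D4:**
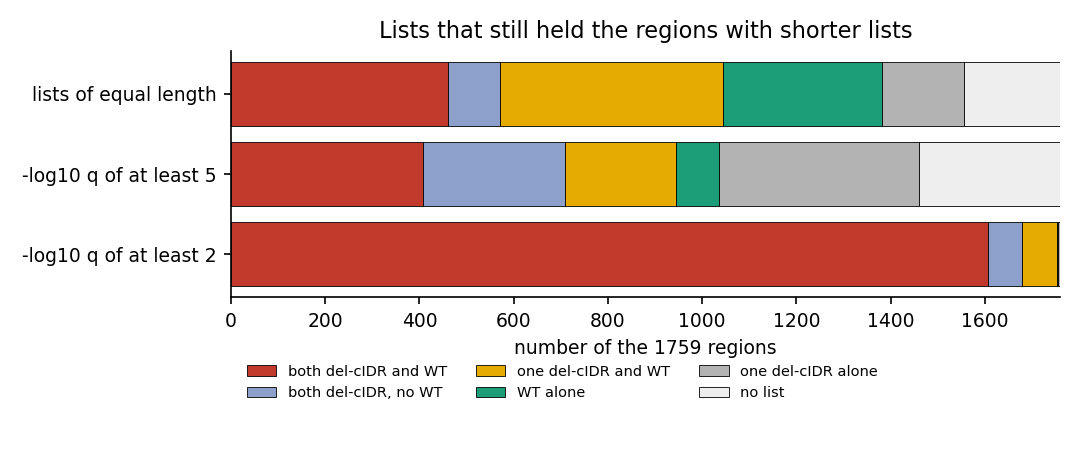
Number of the 1759 regions (x axis) by the lists that still held them when all 4 YY1 lists were shortened (y axis: the setting). With a −log10 q of at least 2, 1607 kept all 3 peaks, with at least 5 it was 407, and with lists of equal length 461.

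The members were spread over all 20 chromosomes analysed, with 58 to 129 on each. As a share of the del-cIDR regions of a chromosome they were most frequent on chromosomes 10 (38.9%, 33.1 to 45.0), 18 (35.2%, 28.6 to 42.4) and 13 (34.3%, 28.7 to 40.3). They were least frequent on chromosomes 12 (25.9%, 20.6 to 31.9), X (28.2%, 22.6 to 34.7) and 11 (28.3%, 24.4 to 32.7). The interval of chromosome 10 was the only one of the 20 that did not hold the overall 31.0%, and no test was run across chromosomes. WT replicate 2 held 75% to 84.7% of the members on every chromosome.

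P300 was not used to choose the members, so its peaks could be compared between genotypes over libraries. Of the 1759 members, 76 (4.32%) and 77 (4.38%) overlapped a P300 peak in del-cIDR replicates 1 and 2, and 81 (4.60%) and 146 (8.30%) in WT replicates 1 and 2. Over all merged YY1 regions the same lists gave 2.73%, 2.66%, 2.93% and 4.43%. The mean was 4.35% ± 0.0402 (SD, n = 2) in del-cIDR and 6.45% ± 2.61 (SD, n = 2) in WT cells, a difference of −2.10 percentage points. The two-sided exact permutation test gave p = 0.333 (n = 2 per genotype), which is the smallest p that 6 assignments allow, so it cannot pass 0.05. WT replicate 2 set the difference, which was −0.256 without it, and with P300 lists of equal length it was −0.114 (exact permutation p = 1.0).

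Relative to the length of each P300 list, the libraries gave like numbers of members. Per 1000 P300 peaks, 57.5 and 59.9 members were overlapped in del-cIDR and 55.8 and 59.0 in WT replicates 1 and 2. Of the 234 members with any P300 peak, 149 had it in a single list, 69 in 2 or 3 lists and 16 in all 4. Over all merged YY1 regions 1028 of 1588 with any P300 peak had it in a single list, a like share, so this split is not particular to the members.

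**Figure D5:**
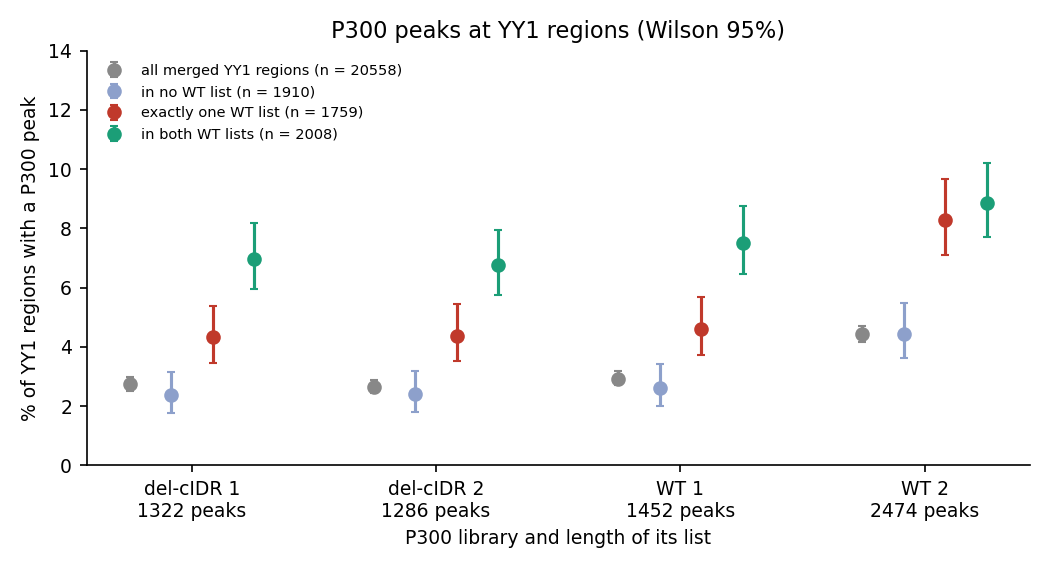
Share of YY1 regions that overlap a P300 peak (y axis, percent, with Wilson 95% intervals) in each P300 library (x axis, with the number of peaks in its list). The regions in exactly 1 YY1 WT list lie at 4.32%, 4.38%, 4.60% and 8.30%, between the regions in no WT list and those in both.

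In each P300 list the share of members with a peak lay between those of the other classes. A P300 peak of at least 1 list overlapped 234 members (13.3%, 11.8 to 15.0), where 7.72% of all merged YY1 regions had one. The share was 8.48% (7.31 to 9.82) for regions in no YY1 WT list and 14.5% (13.1 to 16.2) for those in both. A peak in all 4 P300 lists overlapped 16 members (0.910%, 0.561 to 1.47), against 0.822% of all merged regions, 0.209% of those in no WT list and 3.69% of those in both. The classes differ in width as given above, wider regions can overlap more peaks, and the part of width was not tested, nor were the differences between classes. P300 was not more frequent at higher YY1 ranks except at the very top. A P300 peak lay at 14.1% of members below the 25th percentile of their WT list and at 10.3% of those between the 75th and 90th percentiles, but at 6 of the 11 above the 95th. Among these 6 are the regions of very high significance on chromosomes 2, 9 and 14 described above.

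The 16 members with P300 in all 4 lists fell on 9 chromosomes, and 5 of them were on chromosome 8. WT replicate 2 held 12 of them, where it held 78.8% of all members, and 8 were under 300 bp wide. Of all merged YY1 regions, 169 had P300 in all 4 lists. Their chromosomes and widths were not counted, so these counts are not shown to be particular to the members. On chromosome 8 from 15569850 to 15570027 the P300 folds were 26.3 and 28.1 in del-cIDR and 28.3 and 22.6 in WT replicates 1 and 2, and the YY1 reads were 23 and 41 in del-cIDR and 43 in WT replicate 2. On chromosome 8 from 21130482 to 21130750 the P300 folds were 11.8 and 10.9 in del-cIDR and 13.5 and 12.8 in WT cells. At both regions P300 was strong in every library while YY1 missed a call in WT replicate 1.

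Other regions of this group had modest P300 peaks. On chromosome 6 from 122679535 to 122679921 the P300 reads were 18 and 18 in del-cIDR and 22 and 24 in WT replicates 1 and 2. Its YY1 reads were 16 and 15 in del-cIDR and 39 in WT replicate 2, with YY1 percentiles of 25.5, 59.7 and 94.95, so that the WT library stood above both del-cIDR libraries. On chromosome 3 from 75557621 to 75558187 the P300 reads were 19, 16, 15 and 22 in the same order, and the YY1 reads were 18 and 12 in del-cIDR and 12 in WT replicate 1. On chromosome 19 from 7560793 to 7561490 the P300 reads were 15, 17, 18 and 18, and the YY1 reads 15 and 12 in del-cIDR and 12 in WT replicate 2. The P300 reads of the genotypes overlapped at the chromosome 3 region and did not overlap at the chromosome 6 and chromosome 19 regions, where the gaps between the genotypes were at most a few reads. These regions carried peaks in 7 of the 8 libraries of the series.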

How the data were processed

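Peak lists of 8 CUT&RUN libraries were analysed, 1 list per library and not pooled. Per the submitters' processing notes, the build was GRCm39 and the tools included the peak caller MACS2, the aligner BWA, fastp, Picard, SAMtools and featureCounts, with no roles or versions. The sources used here do not give whether a control library was used. Each deposited peak has a fold (a ratio of summit to local background), a −log10 p and a −log10 q from the authors' peak caller, a summit position and a score. The deposited score was not used. The lowest −log10 q of every list matches a q-value threshold of 0.05.

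Peaks on chromosomes 1 to 19 and X were kept, which left out 0.683% to 10.0% of a list. Peaks sharing at least 1 bp were merged, and the peak with the highest −log10 q stood for its library in each region. Percentiles are of −log10 q within a list. Whole summit reads were solved by trying every read number up to 1000, with fold equal to (reads + 1)/(background + 1) and p the Poisson chance of more reads. A single number matched −log10 p within 0.0005 for 96.8% to 99.8% of the peaks of a list. Reads of different libraries are on their own depth, which is unknown, and were not tested against each other. The solver and the merging were tested on simulated data.

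The members and lists were chosen with earlier results of these data known. The regions named are, per WT list, the 8 with the best mean percentile and the 4 with the lowest −log10 q, the 3 widest, and those with P300 in all 4 lists, and a selection of these is printed. Regions just outside the rule are those in both WT lists with the lowest −log10 q. Python 3.11.15, pandas 2.3.3 and SciPy 1.17.1 were used.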

Additional observations from a re-analysis of the deposited data

How the results depend on the processing

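Merging only peaks that share 50 bp, merging across gaps of up to 200 bp, a −log10 q of at least 2, and leaving out the regions in all 4 P300 lists (added after the data were examined) moved the number of regions to between 1650 and 1834. At a −log10 q of 5 or more there were 822, of which WT replicate 2 held 83.1%, and with lists of equal length 551, of which it held 68.1%. These were not all the same regions as before. Of the 822, 407 had been members and 415 had been in both WT lists. Of the 551, 461 had been members and 90 had been in both WT lists. Without del-cIDR replicate 1 or 2 the number was 2629 or 2054, the share held by WT replicate 2 was 78.0% or 78.5%, and the median WT percentile was 43.4 or 46.6. The rule needs both WT libraries, so neither was left out. Under the other settings the median WT percentile ran from 41.0 to 51.4. The genotype difference in the share of members with P300 was negative under all settings run. It was closest to 0 with P300 lists of equal length, at −0.114 (exact permutation p = 1.0). Leaving out 1 library gave −3.95 (without WT replicate 1) to −0.256 (without WT replicate 2). It was −0.767 (exact permutation p = 0.667) with P300 peaks at a −log10 q of at least 5 and −1.19 at the summit of del-cIDR replicate 2, a setting added after the data were examined. With the replicate block it was −2.10 (exact permutation p = 0.5, the smallest 2 pairs allow), and differences between replicates correlated at 0.0555 between genotypes. Shares of regions at transcription starts and with a YY1 motif were not run, since no annotation or genome of the build was used. Read depth is unknown, so a missing call is not evidence of absence.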

Other observations

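Members were counted in windows of 1 Mb along the chromosomes. Of the 1063 windows of 1 Mb that held any, 635 held 1 member, and 22 windows with at least 5 held 133 members. Such totals were not made for all del-cIDR regions, so they do not show whether members were scattered or grouped. The fullest windows were chosen after their values were seen. The window from 80 to 81 Mb of chromosome 10 held 9 members among 16 del-cIDR regions, with 4 regions in no WT list and 3 in both. The windows from 33 to 34 Mb of chromosome 17, from 37 to 38 Mb of chromosome 18 and from 44 to 45 Mb of chromosome 7 held 8 members each, among 15, 11 and 20 del-cIDR regions. Both WT libraries contributed to each of these 4 windows, with 3, 2, 2 and 1 members from WT replicate 1 and 6, 6, 6 and 7 from WT replicate 2.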
